A study of Mus musculus with 30 samples.

Results

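The comparison described here sets the livers of insulin-injected mice at sampling point 5 against those at sampling point 4. Its members are 6 of the 30 libraries of the series, 3 at each point, chosen by their labels alone. All mice were C57BL/6J, an inbred laboratory strain, 10 weeks old, fasted for 12 to 16 h and then injected intraperitoneally (IP). The insulin groups received human insulin at 0.7 U/kg, and the PBS groups, set beside them at the same points, received phosphate-buffered saline, the vehicle. Each library was made from poly(A) RNA of the left liver lobe with a directional kit. The series design covers 5 sampling points over 4 h in triplicate. Minutes are not stated for the numbered points, and no spacing between them is assumed. Nothing in the labels says that each library came from another mouse. The p-values therefore measure the spread between samples, which may be technical.

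Insulin binds a receptor tyrosine kinase on hepatocytes and acts through insulin receptor substrates, phosphoinositide 3-kinase and Akt. Akt keeps Foxo transcription factors out of the nucleus, which lowers the transcription of genes for glucose output, and insulin raises Srebf1, which serves lipid synthesis. In the liver the signal after an injection is short-lived, and counter-regulatory hormones answer the fall in blood glucose. The comparison of points 5 and 4 asks which transcripts differed late in the sampled window, and the PBS arm shows what differed between the same points without insulin.

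The values were FPKM, read fragments normalized to the length of the transcript and the size of the library. Depth, estimated from the step that 1 read makes in low values, was 25.4 to 34.7 M reads in the 6 libraries. Hepatocyte markers were high in all of them, with summed levels of 50060 to 65100 FPKM at point 5 and 51650 to 64520 FPKM at point 4 over 10 genes. The replicate 1 libraries stood apart at both points: the summed level of ribosomal and nuclear-retained RNAs was 541.7 FPKM at point 5 and 500.0 FPKM at point 4, against 69.3 to 102 FPKM in the other 4 insulin libraries. At point 5, replicates 1 and 2 were sequenced on lane 1 and replicate 3 on lane 2. At point 4, replicate 2 was on lane 1 and replicates 1 and 3 were on lane 2. The PBS libraries were on lanes 3, 4 and 5, so the lane and the treatment cannot be told apart.

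Of 11816 genes tested, 21 were higher at point 5 than at point 4 in the insulin arm (0.178% of genes tested) and 80 were lower (0.677%), 101 in all (0.855%), by limma with Benjamini-Hochberg adjusted p under 0.05. The genes that rose included the receptors Erbb3 and Egfr, the interleukin-1 receptor antagonist Il1rn and the histone methyltransferase gene Setdb2. The genes that fell included the signalling adaptor Shb, the phosphoinositide 3-kinase subunit Pik3r1, the lipogenic transcription factor Srebf1, the calcineurin regulator Rcan1 and the heme-degrading enzyme Hmox1. Most differences were moderate: 5 of the 21 and 14 of the 80 reached 1 on the log2(FPKM + 1) scale, on which all differences below are given as point 5 minus point 4. That scale understates the change of genes at low levels. In all 101 genes the 3 libraries of one point lay wholly above the 3 of the other, which was so for 4.38% of all genes with point 5 above and 11.3% with point 5 below. The median difference over all genes was -0.07, and 62.4% of genes had a negative difference. After median-ratio scaling the counts were 52 higher and 72 lower, and after quantile normalization 71 higher and 71 lower.

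The counts depended on single libraries. Without point 5 replicate 3 there were 5 higher and 10 lower genes, without point 5 replicate 1 there were 13 and 26, and without point 5 replicate 2 there were 13 and 62. Without point 4 replicate 2 there were 2 higher and 8 lower genes, without point 4 replicate 3 there were 41 and 46, and without point 4 replicate 1 there were 15 and 89. Of 32 named genes that passed, 25 missed the threshold without point 4 replicate 2, 23 without point 5 replicate 3, and 8 to 13 without any one of the other 4 libraries. When all 5 libraries of the insulin replicate 1 series were left out, 5 higher and 12 lower genes passed. A fit to the 6 compared libraries alone, without the spread of the other groups, called 0 higher genes (1577 of the 11816 had an unadjusted p under 0.05 in the fit to all libraries, in either direction) and 1 lower gene. The genes that passed whichever of the 6 libraries was left out were Gprin3 and Zc3h12d among the higher ones and Hivep2, Mrtfa, Pitpnc1, Rcan1, Shb and Lipg among the lower ones.

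In the PBS arm no gene passed the test of point 5 against point 4 in limma (0.0% of 11816; 644 had an unadjusted p under 0.05). The test of the difference itself, the insulin step minus the PBS step, also passed for no gene (0.0% of 11816; 703 had an unadjusted p under 0.05, and the smallest adjusted p was 0.225). The data therefore do not show at this threshold that any of the 101 genes moved differently between the points in insulin-injected than in PBS-injected mice. The 21 higher genes had a median difference of 0.83 in the insulin arm and 0.14 in the PBS arm, where 18 were positive. The 80 lower genes had a median of -0.75 in the insulin arm and -0.15 in the PBS arm, where 63 were negative. These genes were chosen by the insulin difference, so a smaller PBS difference is partly a product of that choice and carries no test.

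**Figure D1:**
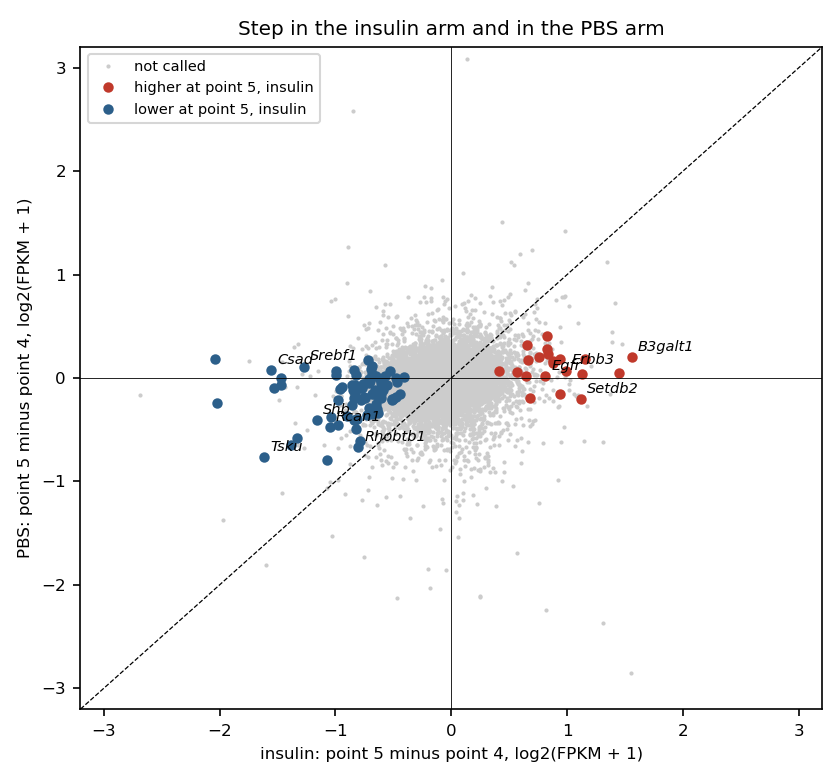
Difference between point 5 and point 4 on the log2(FPKM + 1) scale for each of 11816 genes, in the insulin arm (horizontal axis) and in the PBS arm (vertical axis); red and blue dots are the 21 higher and 80 lower genes of the insulin arm, grey dots all other genes, and the dashed line marks equal differences (1 gene lies outside the axes). The coloured dots spread along the horizontal axis, with PBS medians of 0.14 for the higher and -0.15 for the lower genes.

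Among the receptors that rose, Erbb3, the kinase-impaired member of the epidermal growth factor receptor family that binds neuregulins, had 29.2, 35.2 and 31.2 FPKM in the point 5 libraries, against 16.2, 9.87 and 23.1 FPKM in the point 4 libraries. Its groups did not overlap, and the point 4 libraries were the more scattered. The difference was 0.99 ± 0.18 (SE, n = 3 each, adjusted p = 0.00708), and without point 4 replicate 2 it was 0.69 with an adjusted p of 0.057. The insulin arm averaged 29.9, 15.9, 6.67, 16.4 and 31.9 FPKM at points 1 to 5, and the PBS arm stayed between 24.0 and 27.9 FPKM. Point 5 was thus close to point 1 and to the PBS livers, and point 3 was the low end of the course. Egfr, the receptor for epidermal growth factor and transforming growth factor alpha, had 56.6, 64.3 and 105 FPKM at point 5, against 37.3, 42.7 and 43.2 FPKM at point 4. The highest of these came from point 5 replicate 3. The difference was 0.81 ± 0.18 (adjusted p = 0.0332), against 0.55 with an adjusted p of 0.162 without that library, and the call was also lost without any one of the point 4 libraries. Chosen after their values were seen, Tgfa, which encodes the ligand transforming growth factor alpha, and Gab1, a docking protein used by this receptor family, were among the lower genes, with differences of -0.50 ± 0.11 and -0.62 ± 0.12 (adjusted p = 0.0331 and 0.0201).

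The largest rise was that of B3galt1 (chr2:67565871-68122689, plus strand; positions are those of GRCm38), which encodes a beta-galactosyltransferase of glycan synthesis. It had 18.3, 14.0 and 23.8 FPKM at point 5, against 5.58, 3.35 and 8.86 FPKM at point 4, and the lowest point 5 library lay well above the highest point 4 library. Its difference was 1.56 ± 0.35 (adjusted p = 0.034), with 10.2 FPKM at point 5 and 8.60 FPKM at point 4 on average in PBS livers. Il1rn (chr2:24336853-24351494, plus strand), whose secreted product blocks the interleukin-1 receptor, had 8.45, 8.84 and 6.56 FPKM at point 5, against 2.91, 1.40 and 2.71 FPKM at point 4, a difference of 1.45 ± 0.34 (adjusted p = 0.0418). In the PBS arm it had 3.05, 13.9 and 2.38 FPKM at point 5, and the mean of 6.45 FPKM there rests on replicate 2, against a mean of 4.74 FPKM at point 4. The calls of B3galt1 and Il1rn were lost in 4 and 5 of the 6 fits with a library left out.

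Setdb2 (chr14:59402009-59440884, minus strand), a histone methyltransferase gene, and Phf11c (chr14:59380833-59395381, minus strand), a PHD finger gene that lies close to it on the same strand, both rose. Setdb2 had 14.7, 17.2 and 26.1 FPKM at point 5, against 10.5, 4.33 and 11.3 FPKM at point 4 (difference 1.12 ± 0.23, adjusted p = 0.0202). Phf11c had 3.06, 2.70 and 6.60 FPKM at point 5, against 1.88, 1.29 and 1.81 FPKM at point 4 (difference 0.87 ± 0.19, adjusted p = 0.0304). In both genes point 5 replicate 3 was the highest library. Neither passed without it (differences 0.89 and 0.55, adjusted p = 0.114 and 0.133) or without point 4 replicate 2 (0.73 and 0.77, adjusted p = 0.143 and 0.179). The insulin means of Setdb2 were 4.90, 4.74, 2.84, 8.70 and 19.3 FPKM at points 1 to 5, and its PBS means lay between 4.07 and 5.58 FPKM, so its point 5 level was outside the range of every other group mean.

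Gprin3, a gene linked to neurite outgrowth, had 6.28, 7.52 and 8.53 FPKM at point 5, against 3.43, 1.58 and 3.94 FPKM at point 4 (difference 1.13 ± 0.19, adjusted p = 0.00413). Zc3h12d, which encodes an RNA-binding zinc finger protein, had 1.01, 1.50 and 1.26 FPKM at point 5, against 0.345, 0.0950 and 0.359 FPKM at point 4 (difference 0.84 ± 0.13, adjusted p = 0.00242). These are the 2 higher genes that passed whichever library was left out. Mcc, Tbc1d30, Tbx3, Hapln1, Abtb2, Ppfibp2 and Hykk had differences between 0.76 and 1.16 and adjusted p from 0.00732 to 0.0483. With a library left out, Mcc kept its call in 5 of the 6 fits and Abtb2 and Hykk in 3. Hapln1 and Ppfibp2 kept it in 1 and Tbc1d30 in 0. Hapln1 was low, with 0.542, 0.133 and 0.899 FPKM at point 4. Tbx3, a T-box factor of pericentral hepatocytes and a Wnt target, had 4.57, 4.35 and 4.12 FPKM at point 5, against 1.30, 2.62 and 1.60 FPKM at point 4. Its difference of 0.94 ± 0.22 (adjusted p = 0.0429) was lost whichever library was left out, and its PBS means were 6.82 FPKM at point 5 and 7.65 FPKM at point 4. Exons of Tbc1d30, Tbx3, Ppfibp2 and Mcc overlap those of another gene, and the strand setting of the quantification is not given in the sources used here, so their levels are uncertain. The lipid genes Nceh1, a cholesterol ester hydrolase gene, and Lclat1, a lysocardiolipin acyltransferase gene, were also higher, with differences of 0.68 ± 0.13 and 0.67 ± 0.13 (adjusted p = 0.0187 and 0.0201), and were chosen after their values were seen.

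**Figure D2:**
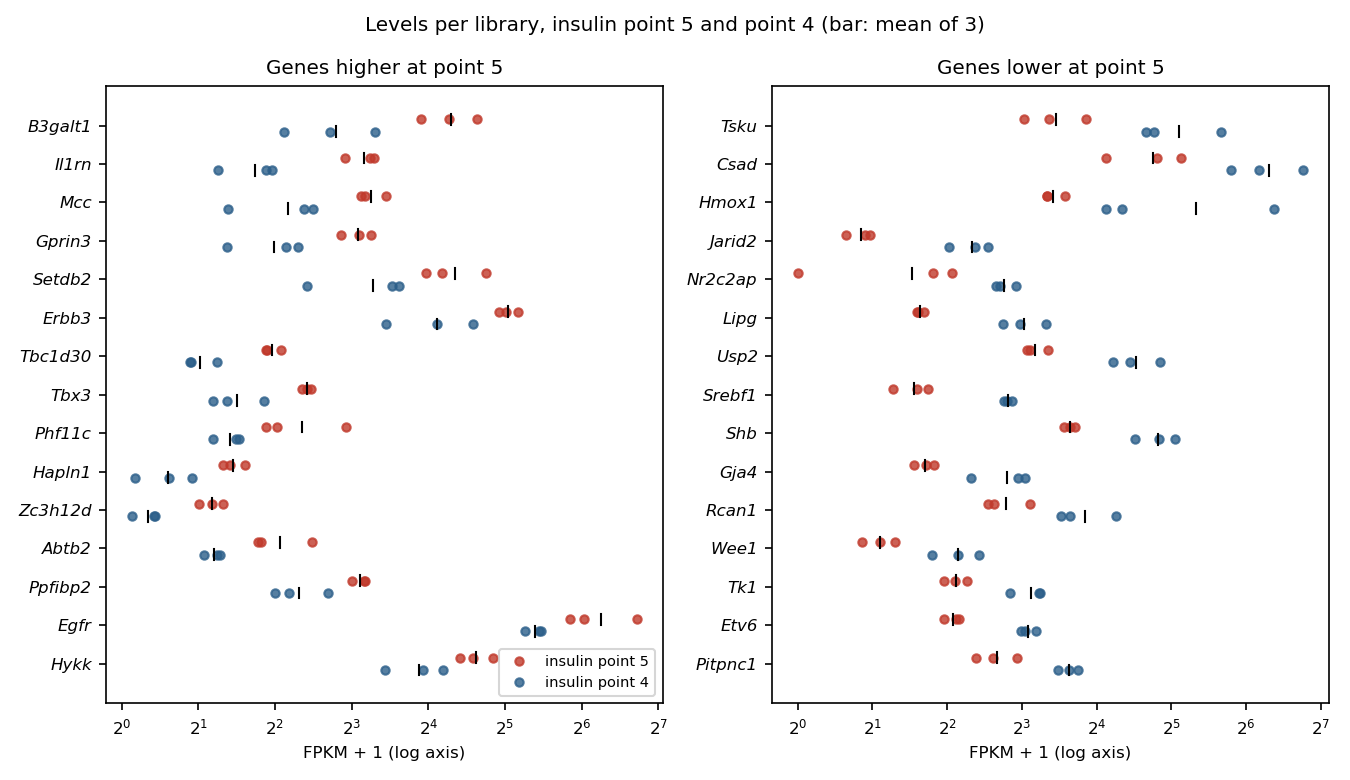
FPKM + 1 on a log axis for the 15 largest rises (left) and 15 largest falls (right) among named genes; each dot is a library, red for point 5 and blue for point 4, and the black bar is the mean of 3. The red and blue dots do not overlap in any row, which the rule that chose these genes required. In Hmox1 the point 4 replicate 2 library, at 81.9 FPKM, lies far from the other 2.

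Among the lower genes, insulin signalling was represented by Pik3r1, the regulatory subunit of phosphoinositide 3-kinase, and Shb, an SH2-domain adaptor downstream of receptor tyrosine kinases. Pik3r1 had 8.04, 8.15 and 7.62 FPKM at point 5, against 14.7, 21.4 and 13.9 FPKM at point 4. The point 5 libraries were tightly grouped and the highest of all was point 4 replicate 2. The difference was -0.96 ± 0.18 (adjusted p = 0.00881), against -0.78 with an adjusted p of 0.107 without that library and -0.93 with an adjusted p of 0.0545 without point 5 replicate 3. Its insulin means at points 1 to 5 were 8.14, 17.5, 30.4, 16.7 and 7.94 FPKM, and its PBS means were 9.76, 17.3, 19.1, 13.0 and 12.0 FPKM. Shb (chr4:45423278-45532470, minus strand) had 10.8, 11.5 and 12.1 FPKM at point 5, against 22.0, 32.0 and 27.6 FPKM at point 4, a difference of -1.16 ± 0.18 (adjusted p = 0.00242). Its insulin means at points 1 to 5 were 10.4, 15.7, 30.0, 27.2 and 11.5 FPKM, so that point 5 was near point 1. In PBS livers Shb averaged 13.9 FPKM at point 5 and 18.7 FPKM at point 4 (difference -0.41 ± 0.18, adjusted p = 0.839).

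Rcan1 (chr16:92391953-92470867, minus strand), which encodes a protein that binds and regulates the phosphatase calcineurin, had 4.85, 5.17 and 7.64 FPKM at point 5, against 10.6, 18.2 and 11.5 FPKM at point 4 (difference -1.05 ± 0.16, adjusted p = 0.00242). In the insulin arm it averaged 4.18, 26.0, 30.0, 13.4 and 5.89 FPKM at points 1 to 5. The lowest PBS mean was 4.82 FPKM, at point 5, and the highest 7.07 FPKM, at point 4. Its insulin level at point 5 therefore lay within the PBS means, and its PBS difference was -0.48 ± 0.16 (adjusted p = 0.612). Pitpnc1, a phosphatidylinositol transfer protein gene, had 6.63, 4.24 and 5.15 FPKM at point 5, against 11.4, 12.5 and 10.2 FPKM at point 4 (difference -0.98 ± 0.15, adjusted p = 0.00242), and its point 4 mean was the highest of the 5 insulin means. The transcriptional regulators Hivep2 and Mrtfa, the second a coactivator of serum response factor, were chosen after their values were seen because they passed whichever library was left out. Hivep2 had 1.15, 1.17 and 1.18 FPKM at point 5, against 2.90, 3.26 and 2.37 FPKM at point 4 (difference -0.82 ± 0.12). Mrtfa had 0.497, 0.386 and 0.527 FPKM at point 5, against 1.72, 2.05 and 1.69 FPKM at point 4 (difference -0.94 ± 0.15), below 1 FPKM in every point 5 library. Exons of Hivep2 overlap those of Gm26835 and Gm28289, and exons of Mrtfa those of Sgsm3, so their levels may include reads of a neighbour.

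In metabolism, Srebf1, the transcription factor of fatty acid synthesis, had 2.35, 2.04 and 1.42 FPKM at point 5, against 5.80, 5.95 and 6.29 FPKM at point 4. Each point 5 library was below each library of every other insulin point. The difference was -1.27 ± 0.24 (adjusted p = 0.0112), and it was lost without point 4 replicate 2 (-1.28, adjusted p = 0.057) or point 5 replicate 3 (-1.14, adjusted p = 0.0743). PBS livers averaged 7.52 FPKM at point 5 and 6.92 FPKM at point 4, and the insulin step minus the PBS step was -1.38 ± 0.34 (unadjusted p = 0.000382, adjusted p = 0.5). Csad, an enzyme of taurine synthesis from cysteine, had 16.5, 34.1 and 27.1 FPKM at point 5, against 71.1, 54.7 and 108 FPKM at point 4 (difference -1.55 ± 0.37, adjusted p = 0.0443), and PBS means of 62.7 FPKM at point 5 and 57.6 FPKM at point 4. Its call was kept in 1 of the 6 fits with a library left out, and its exons overlap those of Zfp740. Lipg, the gene of endothelial lipase, had 2.06, 2.03 and 2.24 FPKM at point 5, against 6.85, 8.99 and 5.74 FPKM at point 4 (difference -1.38 ± 0.22, adjusted p = 0.00242). In PBS livers Lipg averaged 2.61 FPKM at point 5 and 4.59 FPKM at point 4 (difference -0.65 ± 0.22, adjusted p = 0.612).

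Hmox1 and Usp2, linked to oxidative stress and to the clock, had their high insulin means at points 3 and 4. Hmox1, heme oxygenase, had 9.10, 11.0 and 9.06 FPKM at point 5, against 16.5, 81.9 and 19.3 FPKM at point 4. One point 4 library, replicate 2, was far above the rest. The difference was -1.53 ± 0.38 (adjusted p = 0.049), and without that library it was -0.82 with an adjusted p of 0.268. The call was also lost without any one of the point 5 libraries. Usp2, a deubiquitinase gene under clock control, had 9.22, 7.61 and 7.40 FPKM at point 5, against 17.6, 27.9 and 20.9 FPKM at point 4 (difference -1.33 ± 0.26, adjusted p = 0.0142). Its insulin means were 1.11, 9.08, 22.3, 22.1 and 8.08 FPKM at points 1 to 5, and its PBS means were 2.31, 6.68, 20.0, 17.6 and 11.8 FPKM, so both arms were low at point 1 and higher at points 3 and 4. The call was lost without point 4 replicate 2 (-1.16, adjusted p = 0.128) or point 5 replicate 3 (-1.28, adjusted p = 0.0699). Tsku (chr7:98350668-98361328, minus strand), the gene of a secreted leucine-rich proteoglycan made by hepatocytes, had the largest fall among the named genes. It had 9.31, 7.14 and 13.5 FPKM at point 5, against 24.3, 49.7 and 26.3 FPKM at point 4 (difference -1.62 ± 0.36, adjusted p = 0.0331), and PBS means of 18.7 FPKM at point 5 and 30.2 FPKM at point 4. Its difference was -1.30 with an adjusted p of 0.21 without point 4 replicate 2, and the call was also lost without any one of the point 5 libraries.

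**Figure D3:**
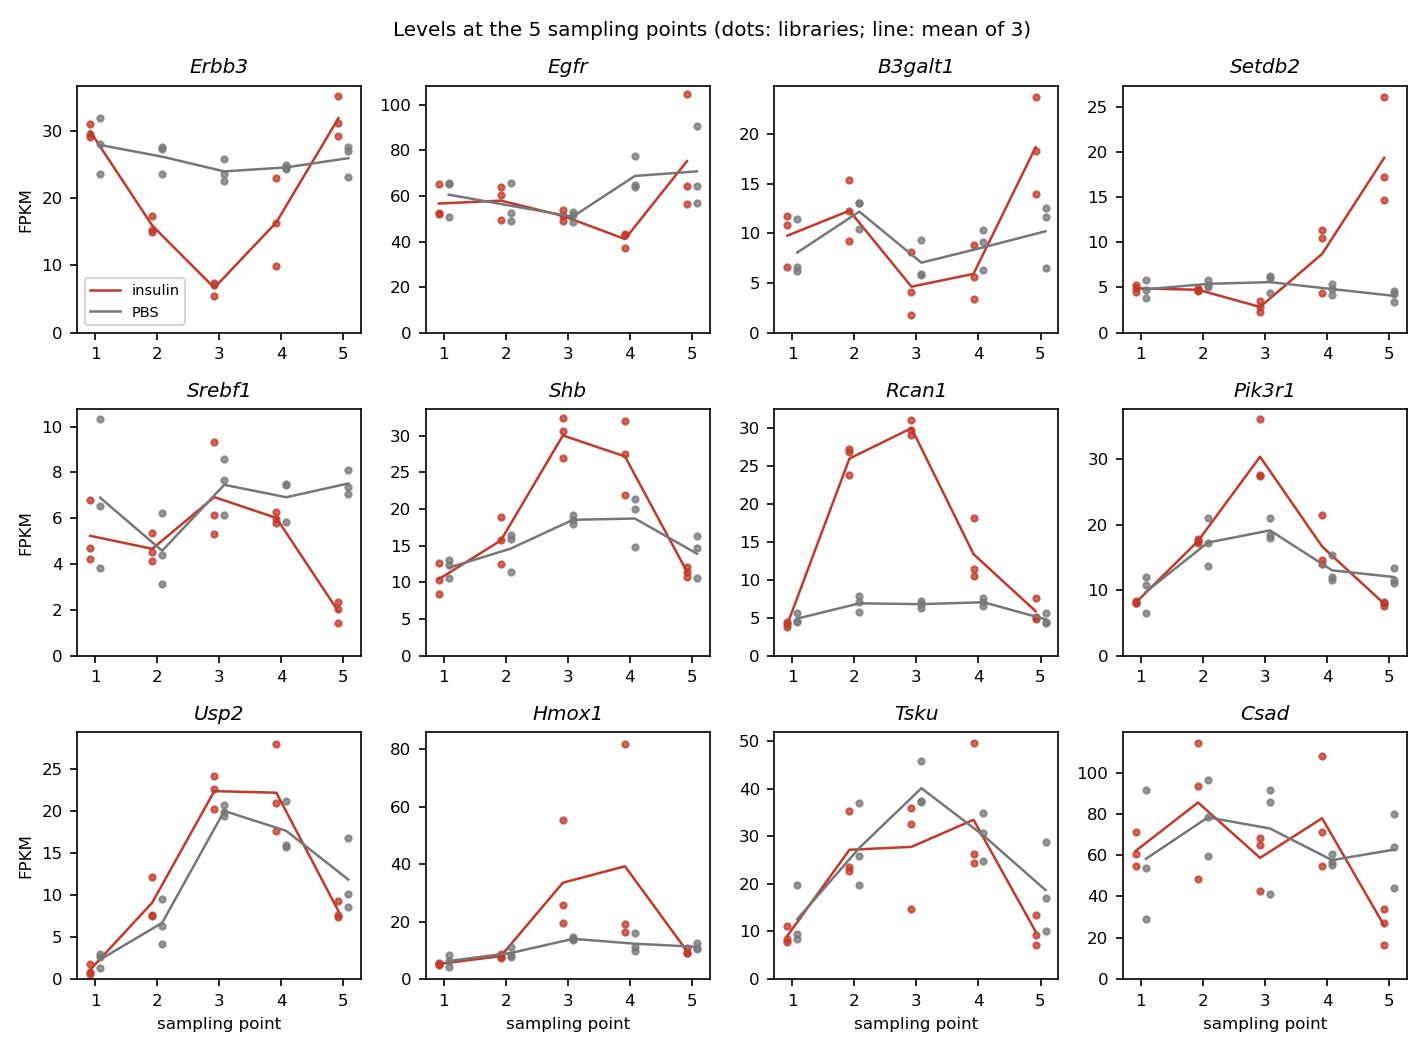
FPKM at sampling points 1 to 5 for 12 genes; red is insulin, grey is PBS, dots are libraries and lines join the means of 3. At point 5 the insulin means of Erbb3 (31.9 FPKM), Shb (11.5 FPKM), Rcan1 (5.89 FPKM) and Pik3r1 (7.94 FPKM) lie near their point 1 means. Those of Setdb2 (19.3 FPKM), B3galt1 (18.7 FPKM), Egfr (75.3 FPKM), Srebf1 (1.93 FPKM) and Csad (25.9 FPKM) lie outside the range of the other insulin means. The means of Erbb3 and Pik3r1 also lie outside that range, by little.

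How many called genes came back at point 5 to their point 1 level was not counted. The mean over points 1 to 3 of the insulin arm was nearer to point 4 in 47 of the 80 lower genes and nearer to point 5 in 33. Among the 21 higher genes it was nearer to point 4 in 17, and among all genes tested in 58.0%, a share close to that of the lower genes. This mean does not detect a return to point 1: Rcan1 and Pik3r1 counted as nearer to point 4. Jarid2, a partner of the Polycomb repressive complex, had 0.965, 0.570 and 0.869 FPKM at point 5, against 4.83, 3.08 and 4.18 FPKM at point 4 (difference -1.47 ± 0.29, adjusted p = 0.0164, and 0.0594 without point 5 replicate 3). Etv6, an ETS-family repressor, had 2.88, 3.48 and 3.36 FPKM at point 5, against 7.28, 8.13 and 6.92 FPKM at point 4 (difference -0.99 ± 0.19, adjusted p = 0.0142), a call lost without point 4 replicate 2, point 5 replicate 1 or point 5 replicate 3. Tet3, which oxidizes methylcytosine, and Mbd1, which binds methylated DNA, were chosen after their values were seen and had differences of -0.53 ± 0.11 and -0.84 ± 0.17 (adjusted p = 0.026 and 0.0202). The cell cycle genes Wee1, a mitotic inhibitor kinase, and Tk1, thymidine kinase, fell by 1.04 and 1.00. Tk1 held only without point 4 replicate 1 or point 5 replicate 1. Wee1 stayed at 0.811 to 1.47 FPKM at point 5, against 2.49 to 4.38 FPKM at point 4, and its call was lost in 5 of the 6 fits with a library left out. At points 1 to 5 Wee1 averaged 0.545, 1.35, 1.87, 3.44 and 1.15 FPKM in the insulin arm. Without insulin it also varied, with PBS means of 0.474, 0.921, 2.89, 5.145 and 3.92 FPKM. Amd1, Amd2 and Amd-ps3, copies of the gene of a polyamine-synthesis decarboxylase, had differences of -0.83, -0.71 and -0.70. Reads of these near-identical copies may have been split by the quantification, so they are uncertain and are not separate results.

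Gja4, a gap junction protein gene of arterial endothelium, had 2.29, 1.95 and 2.55 FPKM at point 5, against 4.00, 7.27 and 6.75 FPKM at point 4 (difference -1.07 ± 0.22, adjusted p = 0.0201), with a PBS difference of -0.79 ± 0.22 (adjusted p = 0.563). Its insulin call held without point 4 replicate 1 and was lost without any other of the 6 libraries. S1pr1, an endothelial receptor for sphingosine phosphate, and Thbd, thrombomodulin, were chosen after their values were seen and had differences of -0.84 ± 0.20 and -0.82 ± 0.19 (adjusted p = 0.0457 and 0.034). None of the 10 markers of sinusoidal endothelium passed, and all 10 had a negative difference (median -0.17). Their summed level was 62.4 to 71.7 FPKM at point 5 and 69.1 to 86.6 FPKM at point 4. None of the 12 markers of Kupffer cells and macrophages passed either, all 12 were negative (median -0.29 in the insulin arm and -0.58 in the PBS arm), and their summed level was 111 to 150 FPKM at point 5 and 138 to 177 FPKM at point 4. Over all genes tested in the insulin arm, 0.855% were called and 62.4% had a negative difference (median -0.07). The part of these cell types in the result was not tested. In whole liver, fewer cells of a type and less RNA per cell cannot be told apart.

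The 38 gene lists, covering liver programmes, responses and cell types, held 7 called genes, 1 in each of 7 lists. Over all genes tested the share called was 0.855%. Members tested were not totalled over the lists, so the 7 and this share cannot be compared directly. Pik3r1 was the 1 of 20 in the list of the insulin receptor, its adaptors and Foxo targets (median difference -0.23). Srebf1 was the 1 of 17 fatty acid synthesis genes (median -0.05), where the fatty acid synthase gene Fasn had -0.10 and the acetyl-CoA carboxylase gene Acacb 0.91 (adjusted p = 0.905 and 0.0572). Usp2 was the 1 of 18 clock and output genes (median -0.15), among them Cry1 and Cry2, repressors of the clock, at -0.64 and -0.73 (adjusted p = 0.0841 and 0.0798). Hmox1 was the 1 of 12 NRF2 antioxidant genes (median -0.18). Il1rn was the 1 of 20 acute phase genes (median 0.06), Tbx3 the 1 of 9 pericentral hepatocyte genes (median 0.13) and Sox9, a factor of bile duct cells, the 1 of 2 cholangiocyte genes tested, with a difference of 0.65 ± 0.13 (adjusted p = 0.0202). Sox9 was low, with 1.04, 1.36 and 1.22 FPKM at point 5, against 0.606, 0.195 and 0.430 FPKM at point 4. Its PBS difference was 0.32 ± 0.13 (adjusted p = 0.819). The other cholangiocyte gene tested had -0.05. Summed cholangiocyte markers were at 13.3 to 23.6 FPKM at point 5 and 17.7 to 19.6 FPKM at point 4.

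Lists without a called member included gluconeogenesis, where 0 of 13 genes passed and the median was 0.04. Pck1, the rate-limiting enzyme of gluconeogenesis, had 1156, 1456 and 1577 FPKM at point 5, against 1356, 1157 and 1642 FPKM at point 4, with overlapping groups. G6pc, which encodes the enzyme that releases free glucose, had 147, 154 and 202 FPKM at point 5, against 230, 142 and 272 FPKM at point 4 (difference -0.32 ± 0.29, adjusted p = 0.706). Igfbp1, a Foxo target whose product binds insulin-like growth factors in the blood, had 170, 244 and 441 FPKM at point 5, against 495, 224 and 470 FPKM at point 4. Its groups overlapped and its difference of -0.50 ± 0.55 had an adjusted p of 0.757. Irs2, the insulin receptor substrate, had 3.46, 4.83 and 4.74 FPKM at point 5, against 5.94, 3.58 and 8.30 FPKM at point 4 (difference -0.33 ± 0.38, adjusted p = 0.774). In the PBS arm Igfbp1 averaged 64.8 FPKM at point 5 and 37.0 FPKM at point 4, below every insulin library of either point, and G6pc averaged 86.5 FPKM at point 5 and 83.3 FPKM at point 4.

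Among immediate early genes, transcription factors induced within minutes of a stimulus, 0 of 16 passed, 13 had a negative difference and the median was -0.36 in the insulin arm and -0.18 in the PBS arm. In 6 of them, Maff, Jun, Myc, Klf2, Jund and Csrnp1, the point 5 libraries lay wholly below the point 4 libraries, with differences from -0.91 to -0.58, and in 2, Klf10 and Fosl2, wholly above (0.62 and 0.35). Over all genes the shares were 11.3% below and 4.38% above. Of all genes tested in the insulin arm, 0.855% were called and 62.4% had a negative difference (median -0.07). Among CREB targets, which follow cyclic AMP, 0 of 10 passed and 9 were negative (median -0.14). Of 18 genes of endoplasmic reticulum folding 0 passed and 15 were positive (median 0.17), and of 21 genes of amino acid catabolism and the urea cycle 0 passed and 15 were positive, with a median of 0.16 in the insulin arm and 0.32 in the PBS arm.

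**Figure D4:**
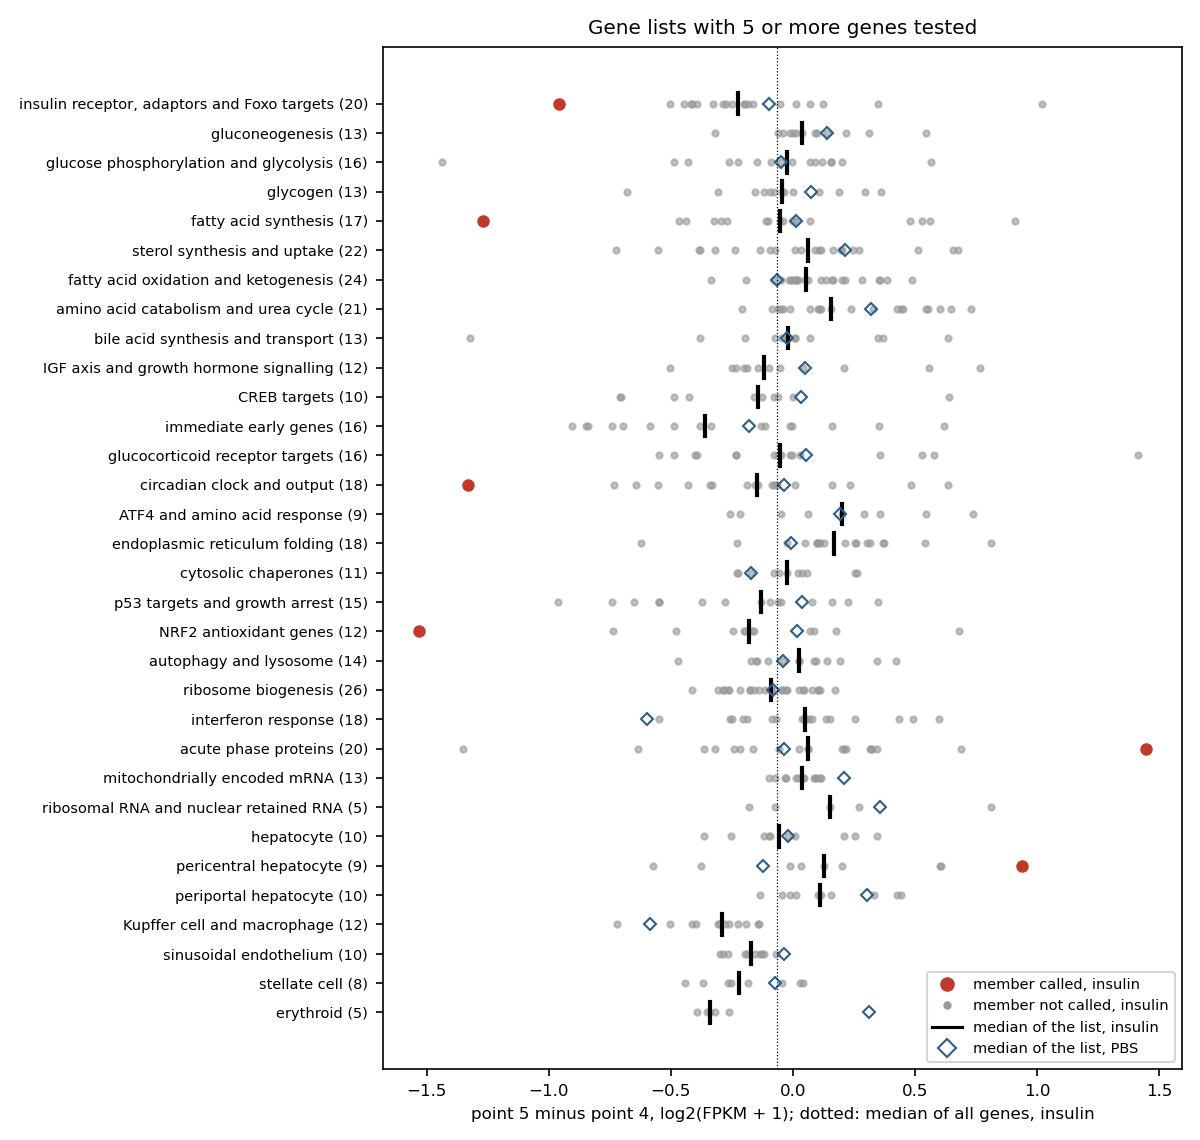
Difference between point 5 and point 4 on the log2(FPKM + 1) scale for the members of each list with 5 or more genes tested (number in brackets); red dots passed the test in the insulin arm, grey dots did not, black bars are the list medians in the insulin arm, open diamonds the medians in the PBS arm, and the dotted line is the insulin median over all genes, -0.07. In no list is there more than 1 red dot, grey dots lie on both sides of the dotted line in most lists, and the Kupffer cell list is negative in both arms (-0.29 and -0.58).

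Promoter windows span 250 bases before to 50 after the first start listed by RefSeq on GRCm38.p6. They are shown for the 2 largest rises and 2 largest falls of the named genes (B3galt1, Il1rn, Tsku and Csad). Shb and Rcan1, which passed whichever library was left out, were added after their values were seen. Of these genes only Shb has a single listed window, and the further windows of the others are not shown. Capitals mark matches on either strand to the motifs searched: TGACG (core of the cyclic AMP response element), GTAAACA (forkhead), CACGTG (E-box), AGAACA (core of the glucocorticoid response element), CCAAT and TATAAA. The windows are B3galt1 at chr2:67565439-67565738 (plus strand), Il1rn at chr2:24336610-24336909 (plus), Tsku at chr7:98361279-98361578 (minus), Csad at chr15:102205003-102205302 (minus), Shb at chr4:45530779-45531078 (minus) and Rcan1 at chr16:92466120-92466419 (minus), each printed 5′ to 3′ on the strand of the gene.
B3galt1: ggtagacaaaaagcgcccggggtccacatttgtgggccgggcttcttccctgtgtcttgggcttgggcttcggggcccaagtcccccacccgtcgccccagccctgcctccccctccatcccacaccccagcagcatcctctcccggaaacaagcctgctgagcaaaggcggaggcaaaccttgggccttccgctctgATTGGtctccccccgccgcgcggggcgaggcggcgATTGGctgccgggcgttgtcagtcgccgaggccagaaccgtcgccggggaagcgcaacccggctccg
Il1rn: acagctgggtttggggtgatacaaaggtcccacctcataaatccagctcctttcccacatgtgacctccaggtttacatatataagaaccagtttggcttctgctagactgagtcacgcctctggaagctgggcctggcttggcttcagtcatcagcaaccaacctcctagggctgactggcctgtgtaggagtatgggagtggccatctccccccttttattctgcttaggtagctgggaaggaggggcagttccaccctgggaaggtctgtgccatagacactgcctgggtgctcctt
Tsku: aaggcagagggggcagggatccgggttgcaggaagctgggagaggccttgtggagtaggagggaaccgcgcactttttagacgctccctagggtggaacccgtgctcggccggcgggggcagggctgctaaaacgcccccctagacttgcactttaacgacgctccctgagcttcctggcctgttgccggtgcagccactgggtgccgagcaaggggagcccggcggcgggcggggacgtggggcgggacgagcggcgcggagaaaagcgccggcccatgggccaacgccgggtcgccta
Csad: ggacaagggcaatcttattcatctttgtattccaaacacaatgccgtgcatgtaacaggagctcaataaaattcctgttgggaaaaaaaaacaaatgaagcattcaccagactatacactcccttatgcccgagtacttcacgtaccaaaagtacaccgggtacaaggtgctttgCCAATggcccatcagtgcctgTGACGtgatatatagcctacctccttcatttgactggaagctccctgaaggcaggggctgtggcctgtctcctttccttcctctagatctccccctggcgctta
Shb: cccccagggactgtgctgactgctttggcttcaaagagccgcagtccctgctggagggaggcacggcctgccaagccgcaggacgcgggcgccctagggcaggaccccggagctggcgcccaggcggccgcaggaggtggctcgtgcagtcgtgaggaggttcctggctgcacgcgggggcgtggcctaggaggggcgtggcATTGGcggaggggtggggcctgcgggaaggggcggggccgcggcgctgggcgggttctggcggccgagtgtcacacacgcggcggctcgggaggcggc
Rcan1: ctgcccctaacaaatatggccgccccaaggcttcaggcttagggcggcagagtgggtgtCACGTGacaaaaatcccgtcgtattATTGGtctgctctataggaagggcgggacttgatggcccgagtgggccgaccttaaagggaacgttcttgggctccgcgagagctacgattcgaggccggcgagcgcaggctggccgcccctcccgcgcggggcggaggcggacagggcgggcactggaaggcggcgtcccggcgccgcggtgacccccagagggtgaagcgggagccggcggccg
B3galt1 held 2 CCAAT matches on the opposite strand, Shb 1 and Rcan1 1, Csad held 1 CCAAT and 1 TGACG match on its own strand, and Rcan1 held 1 CACGTG match. These letters were not found in the windows shown for Il1rn and Tsku, the first of 3 and the first of 2 listed. A first listed window was found for 14 of the 21 higher and 59 of the 80 lower genes. TGACG was in 3 of the 14 and 25 of the 59, against 21.0% of 27025 first windows of all genes. CCAAT was in 8 of the 14 and 22 of the 59, against 37.9% of all. TATAAA was in 0 of the 14 and 1 of the 59, against 14.2%, AGAACA in 1 and 5, against 19.0%, CACGTG in 2 and 4, against 7.24%, and GTAAACA in 1 and 0, against 3.55%. A match describes the letters in a window and is not a binding site. Base composition, which sets how often such letters occur, was not matched between the genes. Expression was not matched either, because the 27025 windows were not limited to the 11816 genes tested.

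Some called genes rested on few fragments. Of the 101, 16 had a mean below 1 FPKM at either point. The RNAs Gm20684 and Gm20528, chosen after their values were seen for the largest falls of all, had cells without a value, which were set to 0 in the fit. Whether such a cell means no reads or a failed estimate is not known. Gm20684 had no value in all 3 point 5 libraries, against 2.62, 3.27 and 3.31 FPKM at point 4. Gm20528 had 0.881 and 1.08 FPKM and 1 cell without a value at point 5, against 4.86, 4.18 and 7.89 FPKM at point 4, and overlaps exons of the Ugt1a genes. Nr2c2ap, a nuclear receptor-associated protein gene, had no value in point 5 replicate 1, which the fit took as 0, and had 2.50 and 3.17 FPKM in the other 2 point 5 libraries, against 6.57, 5.28 and 5.51 FPKM at point 4. Its difference was -0.82 without that library, against -1.47 ± 0.33 with it, and the adjusted p was 0.136 and 0.0332. The call was also lost without any one of the point 4 libraries. Exons of 29 called genes overlap another gene, among them Nr2c2ap, Tk1, Srebf1, Usp2 and Etv6, so their levels may include reads of a neighbour.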

How the data were processed

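Per the labels' protocols, poly(A) RNA of the left liver lobe was sequenced from libraries of a directional kit. Per the submitters' processing notes, the authors used HISAT2 2.1.0, SAMtools 1.9 and StringTie 2.0.3 on GRCm38. For the annotation and the strand setting, the sources used here are silent. The deposited table holds FPKM of 29117 genes in 30 libraries, and 32.2% of the cells, all without a value, were set to 0 FPKM. No test for counts was run.

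Groups came from the sample titles. The test covered the 11816 genes that reached 1 FPKM in 3 of the 6 libraries. On log2(FPKM + 1) values, a pseudocount of 1, limma 3.58.1 (R 4.3.3, eBayes with trend) was run over all 30 libraries, fitting 10 group means with 20 residual degrees of freedom. The contrasts were insulin point 5 minus point 4, the same in PBS, and the difference of both. Tests were two-sided, with Benjamini-Hochberg adjustment over all genes and a threshold of 0.05. Depth was estimated from the commonest low value of genes with a single transcript over 300 bases and covers no other error.

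Named genes were up to 15 rises and 15 falls by size among called genes with separate groups, a higher mean of at least 1 FPKM and a proper symbol, called members of the lists, and 6 textbook insulin targets. A gene that the rule names is not reported here. The members and lists were chosen with earlier results of these data known. Replicates correlated at 0.972 to 0.979 at point 5 and 0.973 to 0.975 at point 4. Alternatives were other pseudocounts, filters and scalings, a lane term, a replicate block, smaller fits and each library left out. Gene positions came from GENCODE, matched by ID for 29066 genes, and promoters from RefSeq.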

Additional observations from a re-analysis of the deposited data

How the results depend on the processing

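The direction of the 32 called named genes was kept in all 562 gene and setting pairs run, with the threshold passed in 371 and missed in 191. For most settings the direction was fixed in advance. In these genes the libraries of points 4 and 5 did not overlap, so leaving out libraries or another pseudocount could not turn the sign. Other filters, smaller fits and the replicate block used the same group means. Only the scalings and the lane term could have changed the direction. Against 21 higher and 80 lower genes, the counts were 34 and 162 with lane as a fixed effect, 52 and 72 after median-ratio scaling, 71 and 71 after quantile normalization, 14 and 32 among genes averaging at least 5 FPKM, 16 and 40 without a filter, 2 and 21 with only the 15 insulin libraries, 0 and 1 with only the 6 libraries, and 5 and 12 without the insulin replicate 1 series. Of the 80 lower genes, 60 were shared with the calls after median-ratio scaling and 60 after quantile normalization. With 1 insulin library left out the counts ranged from 2 to 41 higher and from 8 to 89 lower. The replicate block gave 41 and 175. Whether the numbers pair the samples is not stated in the labels. The correlations of same-numbered deviations were 0.24, 0.04 and 0.04 in the insulin arm and -0.10, 0.06 and 0.06 in the PBS arm. In the insulin arm only replicate 1 correlated best with its own number. Its libraries also stood apart at both points in ribosomal and nuclear-retained RNAs, and the main fit did not take this into account. The PBS step gave 0 calls under every alternative run, and the difference of the steps 0 to 1, with 1 call without PBS point 5 replicate 2. Pck1, not called, turned to -0.10 after quantile normalization, and to -0.11 without point 4 replicate 2, -0.02 without point 5 replicate 2 and -0.08 without point 5 replicate 3 (range -0.11 to 0.14 with 1 library left out); Igfbp1, not called, turned to 0.015 without the replicate 1 series. The cause of these changes was not tested. Groups of 3 and depths of 25.4 to 34.7 M reads limit what could be detected.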
